A study of Rattus norvegicus with 6 samples.

Results

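Hepatic expression of 5 acute phase proteins (A2m, Hp, Orm1, Crp and Lcn2) and 5 genes that control the response (Socs3, Cebpb, Cebpd, Nfkbia and Il1rn) was examined in rats killed after either of 2 kinds of anaesthesia. These 10 genes were taken by name, from 15284 genes that could be named on the array, through the RefSeq accessions of their 17 probes. All 17 probes were well above background on all 6 arrays, so every gene was tested. The animals were male Sprague-Dawley rats of the outbred Crl:CD(SD) stock, bought at 9 weeks of age. All of them, controls included, received the vehicle corn oil at 5 mL/kg/day, for 3 days by the design text and for 9 weeks by the treatment protocol, which conflict. They were killed under CO2/O2 (n = 3), a mixture of gases that makes rodents lose consciousness, or under isoflurane (n = 3), an inhaled anaesthetic, and liver RNA from 1 rat was hybridised to each 1-colour array. There were no unanaesthetised rats, so which of the agents moves a gene cannot be told apart, and a response common to both would not show.

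The acute phase response is the change in proteins secreted by hepatocytes after injury or infection. Interleukin-6 and related cytokines act through STAT3, and interleukin-1 and tumour necrosis factor act through NF-kB; the C/EBP factors, encoded by Cebpb and Cebpd, bind many promoters of the secreted proteins. Socs3 shuts off cytokine receptor signalling, Nfkbia encodes the inhibitor that holds NF-kB in the cytoplasm, and Il1rn encodes the antagonist of the interleukin-1 receptor. In rats A2m is a strongly inducible protein that is scarce in the healthy adult, whereas Crp circulates at a high level without injury.

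Upstream sequences of 3 members are shown because they held letters of a binding motif for these factors. The 250 bases before the RefSeq start site (build GRCr8) could be read for 7 of the 10 members. They were searched on both strands for a STAT motif (TTCNNNGAA), a C/EBP motif (TTGCNNAA) and an NF-kB motif (GGGANNTTCC). Lcn2 lies on the minus strand (chr3:36081781-36082030), where an NF-kB match began 242 bases and a C/EBP match 191 bases before the start. Nfkbia, also on the minus strand (chr6:78597073-78597322), had an NF-kB match 31 bases before the start. Orm1, on the plus strand (chr5:81788259-81788508), had a C/EBP match 123 bases before the start. In these 5′ to 3′ runs, capitals mark the matches, which do not overlap each other.
Lcn2: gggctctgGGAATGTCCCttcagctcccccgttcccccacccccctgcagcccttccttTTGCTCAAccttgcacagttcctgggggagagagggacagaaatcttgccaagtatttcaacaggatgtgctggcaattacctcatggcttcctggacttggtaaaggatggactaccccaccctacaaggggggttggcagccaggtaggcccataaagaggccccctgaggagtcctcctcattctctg
Nfkbia: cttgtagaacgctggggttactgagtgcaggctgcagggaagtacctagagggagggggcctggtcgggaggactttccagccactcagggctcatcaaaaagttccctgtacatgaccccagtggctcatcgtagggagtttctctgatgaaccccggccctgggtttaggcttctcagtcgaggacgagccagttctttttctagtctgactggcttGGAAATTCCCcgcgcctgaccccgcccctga
Orm1: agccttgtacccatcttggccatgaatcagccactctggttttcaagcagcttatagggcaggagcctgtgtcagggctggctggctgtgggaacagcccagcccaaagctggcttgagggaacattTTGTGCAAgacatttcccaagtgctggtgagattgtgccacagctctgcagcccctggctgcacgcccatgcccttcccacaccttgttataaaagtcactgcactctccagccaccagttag
Crp, Socs3, Cebpb and Il1rn held none of the 3 motifs in this window. Among 33469 rat promoters of the same length, the NF-kB motif was present in 1.08%, the C/EBP motif in 9.22% and the STAT motif in 7.67%. A match is a description of the letters, and binding was not measured.

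No acute phase protein and no regulator passed the test for a difference between isoflurane and CO2/O2. Of the 10 members, 0 passed in limma with Benjamini-Hochberg adjustment over all 34637 tested probes at an adjusted p of 0.05. The share passing among all 10609 genes tested was likewise 0%. Of the 34637 probes 3 passed, but no probe of a member and no probe by which a gene was counted. At an unadjusted p under 0.05 in limma 1 member, Cebpd, was counted, against 7.58% of all genes. Each gene counted by its brightest probe. The dimmer second probe of Cebpb had a limma unadjusted p = 0.0476 and adjusted p = 0.655. The values of the 2 groups did not overlap for 0 of the 10 members, against 14.2% of all genes. Exact permutation tests over the 6 rats, two-sided, gave p from 0.2 to 1 over the 17 probes, where 3 against 3 cannot go below 0.1. The median difference, as the log2 level under isoflurane minus that under CO2/O2, was 0.0031 for the 5 acute phase proteins and -0.28 for the 5 regulators, beside -0.011 for all genes tested. For 8 of the 10 members the 95% interval of the difference lay within 2-fold in either direction, as it did for 90.5% of all genes.

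**Figure D1:**
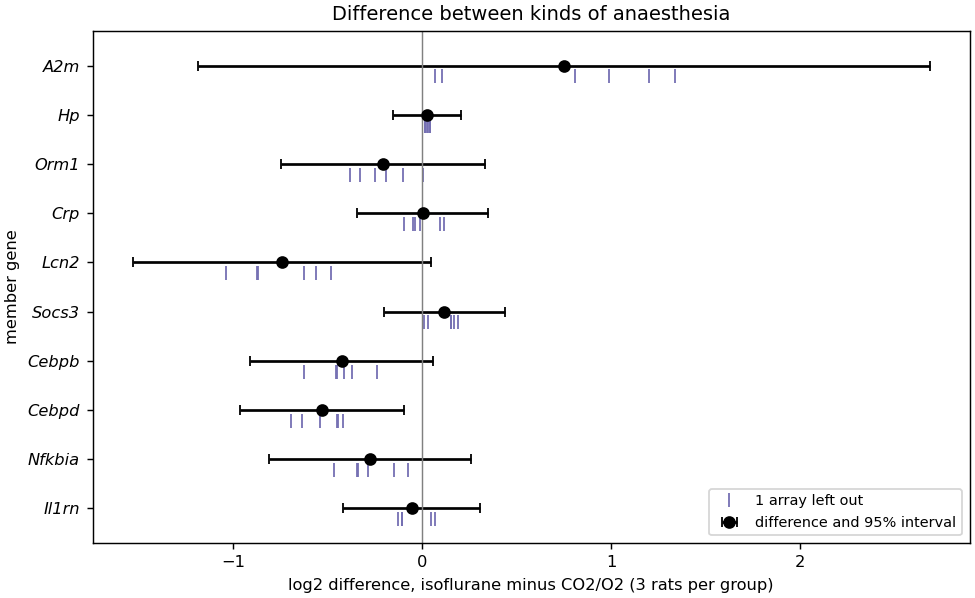
Points are the log2 differences of the 10 members, isoflurane minus CO2/O2, with 95% intervals from limma (3 rats per group); purple ticks are the differences with 1 of the 6 arrays left out. Each gene is shown by its brightest probe. Only the interval of Cebpd, -0.96 to -0.09, does not reach 0, and that of A2m, -1.18 to 2.68, is the widest of the 10.

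What set these genes apart from each other was how much individual rats varied. Levels below are log2 signals relative to the array's 75th percentile, so that 0 is that percentile and 1 unit is a doubling; levels of different probes are not comparable. A2m, an inhibitor that traps proteases of many classes, spanned 10.6-fold between the lowest and the highest rat. Its level was 0.13, 1.97 and 2.40 in CO2/O2 replicates 1 to 3 and 1.08, 2.13 and 3.54 in isoflurane replicates 1 to 3. Both groups therefore held a rat with low and a rat with high A2m, 4.80-fold apart under CO2/O2 and 5.49-fold apart under isoflurane, and the groups overlapped. The difference of 0.75 ± 0.80 (SE, n = 3 per group) was smaller than its error (limma adjusted p = 0.853). It was 0.068 without CO2/O2 replicate 1, 0.11 without isoflurane replicate 3 and 1.34 without isoflurane replicate 1. Isoflurane replicate 1 was the only rat of its group on the slide row of the CO2/O2 arrays. Blocking by row, here and below, therefore sets that 1 rat against the 3 CO2/O2 rats, and for A2m it gave -0.42. The other 2 probes of A2m gave the same order of rats, with spans of 11.4-fold and 11.3-fold and correlations of 0.998 and 0.999 with the first over the 6 arrays. The residual SD of A2m, the spread between rats of a group, was 1.22 log2 units. This was above that of 99.3% of genes tested, whose median was 0.147.

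Haptoglobin, the hemoglobin-binding protein encoded by Hp, lay at the other end. Its level was 9.33, 9.39 and 9.35 under CO2/O2 and 9.41, 9.38 and 9.36 under isoflurane, a span of 1.06-fold over the 6 rats. The difference was 0.028 (95% interval -0.15 to 0.21; limma adjusted p = 0.953). Only 0.528% of genes had a smaller residual SD than the 0.027 of this probe. It was also among the brightest spots, with a median pixel signal at 78.7% to 81.8% of the scanner's saturation value, although no spot was marked saturated. The second Hp probe, at 63.2% to 72.5% of that value, had a residual SD of 0.057 and a difference of 0.058, and its correlation with the first was 0.068. Over the 85 probes that exceeded 50% of the saturation value on every array, the median residual SD was 0.066. Whether signals this close to saturation compress differences between rats was not tested.

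Orm1, the plasma glycoprotein orosomucoid, and Crp, a pentraxin that binds phosphocholine on microbes and dying cells, varied moderately. The level of Orm1 was 6.52, 6.07 and 6.35 under CO2/O2 and 6.19, 6.45 and 5.68 under isoflurane. Isoflurane replicate 3 was the lowest of the 6, and the other isoflurane rats lay within the CO2/O2 range. The difference was -0.21 ± 0.22 (SE; limma adjusted p = 0.853), and 0.0057 without that rat. For Crp the level was 7.28, 6.99 and 7.01 under CO2/O2 and 7.29, 7.13 and 6.87 under isoflurane, with means of 7.09 and 7.10. The difference was 0.0031 (95% interval -0.34 to 0.35; limma adjusted p = 0.998), and the second Crp probe gave -0.085. The residual SD was 0.32 for Orm1 and 0.19 for Crp.

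Lcn2 encodes lipocalin-2, which withholds iron from bacteria by binding their siderophores. Its level was -0.52, -0.64 and -1.47 in the CO2/O2 rats and -1.35, -2.14 and -1.36 in the isoflurane rats. CO2/O2 replicates 1 and 2 stood above the other 4 rats, and CO2/O2 replicate 3 lay within the isoflurane range. The difference was -0.74 ± 0.33 (SE; 95% interval -1.53 to 0.05; limma adjusted p = 0.671), and ran from -1.04 without CO2/O2 replicate 3 to -0.48 without isoflurane replicate 2. Blocking by slide row, which rests on isoflurane replicate 1 alone, gave -0.47. Neutrophils are another source of Lcn2 in liver tissue. Of 10 neutrophil markers 3 could be tested, with a summed signal of 1.49 to 2.17 times the 75th percentile in CO2/O2 rats and 0.983 to 2.10 in isoflurane rats. The defining markers Ngp, Cxcr2 and Ltf did not rise clear of background on any of the arrays. All 3 tested markers had negative differences, as Lcn2 and 52.9% of all genes did. The markers' median was -0.44, with -0.56 for the alarmin S100a9, -0.44 for its partner S100a8 and -0.29 for Camp, an antimicrobial peptide. Lcn2 was lowest in isoflurane replicate 2, where Camp (-1.38) was level with isoflurane replicate 3 (-1.37). S100a8 (-2.29) and S100a9 (-1.35) were lowest in isoflurane replicate 3. Isoflurane replicate 1, with Lcn2 at -1.35, had the highest S100a8 (-0.825). Its S100a9 (-0.04) was level with the highest CO2/O2 rat, replicate 2 (-0.041). The part of neutrophils in the values of Lcn2 was not tested, and in whole tissue fewer cells of a type and less RNA per cell cannot be told apart.

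**Figure D2:**
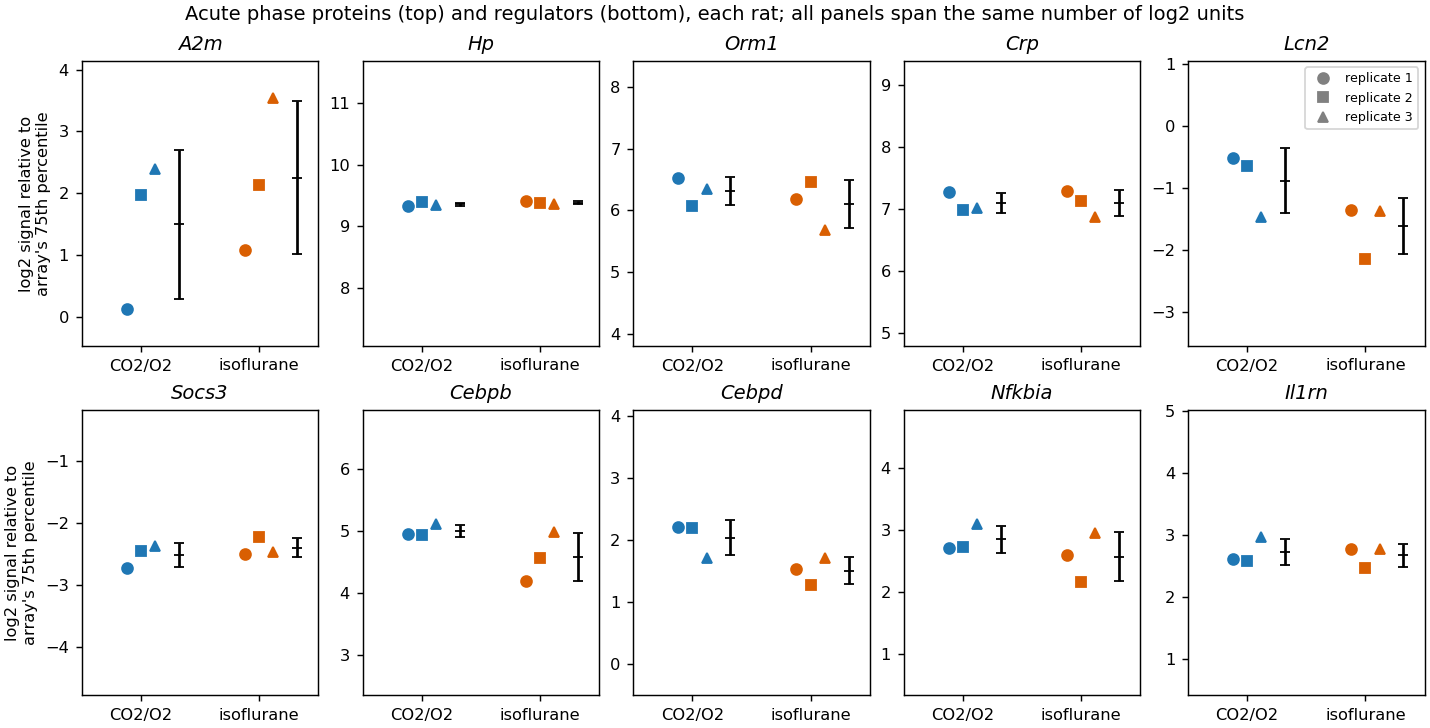
Each point is 1 rat, as the log2 signal of the gene's brightest probe relative to the array's 75th percentile; blue is CO2/O2, orange is isoflurane, and bars are the mean ± SD (n = 3). All panels span the same number of log2 units, so that the 10.6-fold span of A2m can be set against the 1.06-fold span of Hp.

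Among the regulators, both C/EBP genes had negative differences that did not pass the test. Cebpd encodes C/EBP delta, the member of the family that cytokines induce most strongly. Its level was 2.20, 2.19 and 1.70 under CO2/O2 and 1.52, 1.27 and 1.71 under isoflurane. All the isoflurane rats lay below CO2/O2 replicates 1 and 2, but isoflurane replicate 3 was level with CO2/O2 replicate 3, so the groups overlapped. The difference was -0.53 ± 0.18 (SE; 95% interval -0.96 to -0.09), with a limma unadjusted p = 0.0246 and adjusted p = 0.615. Blocking by slide row, which rests on isoflurane replicate 1 alone, gave -0.51. Leaving out single arrays gave -0.69 to -0.42.

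Cebpb encodes C/EBP beta, first described as nuclear factor for interleukin-6. Its level was 4.95, 4.94 and 5.11 in the CO2/O2 rats, which were close together, and 4.20, 4.55 and 4.97 in the isoflurane rats, which were not. Isoflurane replicate 3 fell inside the CO2/O2 range while the other isoflurane rats were below it. The SD was 0.097 under CO2/O2 and 0.39 under isoflurane; a difference in spread was not tested with 3 rats per group. The difference in level was -0.43 ± 0.20 (SE; limma adjusted p = 0.687), and the second probe, which correlated with the first at 0.989, gave -0.56 ± 0.23. Without isoflurane replicate 3 the difference was -0.63, and without isoflurane replicate 1 it was -0.24. Blocking by slide row gave -0.80, which rests on isoflurane replicate 1 alone, the rat with the least Cebpb.

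The 3 inhibitors of cytokine signalling did not pass the test either. For Nfkbia the level was 2.72, 2.74 and 3.11 under CO2/O2 and 2.60, 2.17 and 2.96 under isoflurane, with a difference of -0.28 ± 0.22 (SE; limma adjusted p = 0.804). Replicate 3 was the highest rat in both groups, and isoflurane replicate 2 was the lowest of all. Omitting isoflurane replicate 3 gave -0.47, omitting CO2/O2 replicate 3 gave -0.15, and omitting isoflurane replicate 2 gave -0.074.

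The level of Socs3 was -2.73, -2.45 and -2.38 under CO2/O2 and -2.51, -2.23 and -2.48 under isoflurane. Its values were interleaved between the groups, and the difference was 0.12 ± 0.13 (SE; limma adjusted p = 0.859). Omitting CO2/O2 replicate 1 gave 0.012, omitting isoflurane replicate 2 gave 0.031, and omitting CO2/O2 replicate 3 gave 0.19. Blocking by slide row, which rests on isoflurane replicate 1 alone, gave 0.016. The second Socs3 probe, at lower signal, gave 0.19 ± 0.27 and correlated with the first at 0.643.

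The level of Il1rn was 2.62, 2.58 and 2.97 under CO2/O2 and 2.77, 2.46 and 2.77 under isoflurane. The difference was -0.055 ± 0.15 (SE; limma adjusted p = 0.955). Its second probe had a difference of -0.048 but correlated with the first at only 0.269, so the order of the rats is uncertain for this gene. Macrophages also express Il1rn, and markers of the liver's own macrophages, Kupffer cells, had negative differences in 11 of 11 tested of 12 fixed. Among all genes tested 52.9% had negative differences. Of the 11 markers 6 had an unadjusted p under 0.05 in limma, against 7.58% of all genes. For 6 of the 11 the groups did not overlap, against 14.2% of all genes, and 0 of these markers passed after adjustment. Csf1r is in both of these counts of 6 by its brightest probe (-0.45), but its second probe gave 0.027. Further tested probes of the other markers were all negative. The summed signal of the 11 markers was 212 to 260 times the 75th percentile in CO2/O2 rats and 171 to 202 in isoflurane rats. These sums do not overlap, but they weigh most on the brightest markers, Clec4f and C1qb, which are among the 6 without overlap. No defining marker among the 11 was at background. The median difference of these markers was -0.33, set against -0.055 for Il1rn, and their part in the values of Il1rn, Nfkbia, Cebpb and Cebpd was not tested. Lymphocyte markers were also negative in 7 of 7 tested of 10, with a median of -0.35. Of these 7, 2 had an unadjusted p under 0.05 in limma and 2 did not overlap between groups. Their summed signal was 3.56 to 4.14 in CO2/O2 rats and 3.26 to 3.59 in isoflurane rats. Cholangiocyte markers were negative in 4 of 5 tested, from -1.19 to 0.083 with a median of -0.33. That median is the value of Krt7, which was above background in only 1 of 3 isoflurane rats and passed the filter through the CO2/O2 rats. The part of lymphocytes and cholangiocytes was not tested either. Medians were -0.082 for 9 hepatocyte, -0.057 for 5 sinusoidal endothelial and 0.010 for 7 stellate cell markers.

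**Figure D3:**
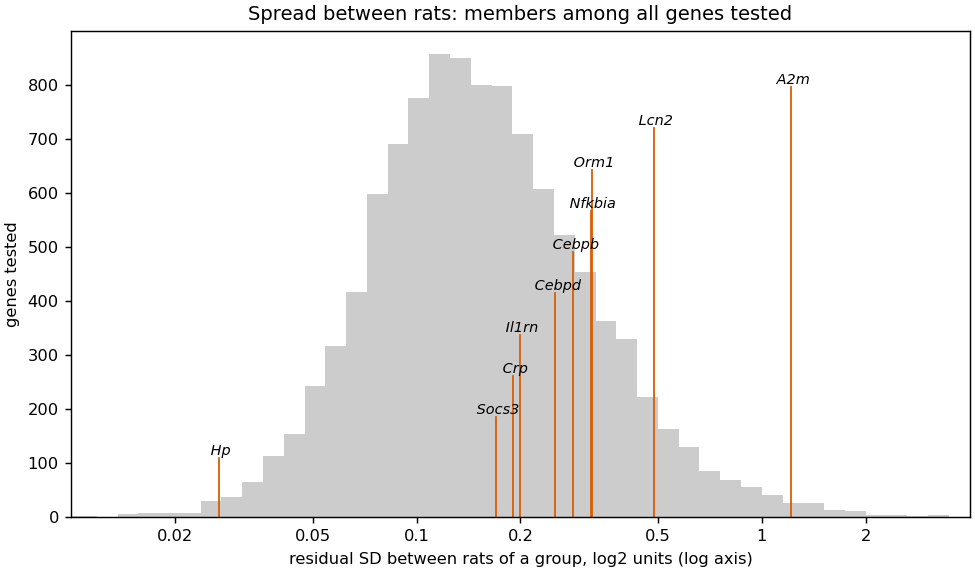
Grey bars are the 10609 genes tested by residual SD, the spread between rats of a group in log2 units (log axis); orange lines mark the 10 members, with heights chosen only to separate the names. Hp lies near the low end at 0.027, A2m near the high end at 1.22, and the other 8 members between 0.17 and 0.49, all above the median of 0.147.

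No pair of members passed the test for varying together across rats. Pearson correlations over the 6 rats were computed for all 45 pairs of members, with exact permutation p-values (720 orders, two-sided) adjusted over the 45, and 0 passed at 0.05; 4 pairs had an unadjusted p under 0.05. Lcn2 and Cebpd had r = 0.967 (exact permutation p = 0.0125, adjusted p = 0.281) and Spearman's rho = 0.829 (exact permutation p = 0.0583, adjusted p = 0.771). Without the 2 rats farthest from the median of Lcn2 the correlation was 0.916. Within the 3 rats of each group it was 0.996 under CO2/O2 and 0.895 under isoflurane, too few to test.

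A2m and Crp had a negative correlation, with r = -0.913 (exact permutation p = 0.0125, adjusted p = 0.281) and rho = -0.771 (exact permutation p = 0.103, adjusted p = 0.771). The 2 rats with the least A2m, replicate 1 of each group, had the most Crp, and isoflurane replicate 3, with the most A2m, had the least. Without CO2/O2 replicate 1 and isoflurane replicate 3, the rats farthest from the median, r was -0.859. All 6 combinations of the 3 A2m and 2 Crp probes gave r between -0.913 and -0.889. The Crp signal covered 1.34-fold where A2m covered 10.6-fold, so the paired changes were unequal in size. Within slide row 1, which held 4 of the rats, r was -0.884 for A2m with Crp and 0.945 for Lcn2 with Cebpd; slide row 2 held only isoflurane replicates 2 and 3. The other pairs with an unadjusted p under 0.05 lost most of their correlation without the 2 farthest rats. Nfkbia and Il1rn went from r = 0.839 (exact permutation p = 0.0431, adjusted p = 0.516) to 0.202, and Lcn2 and Socs3 from r = -0.837 (exact permutation p = 0.0458, adjusted p = 0.516) to -0.139.

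**Figure D4:**
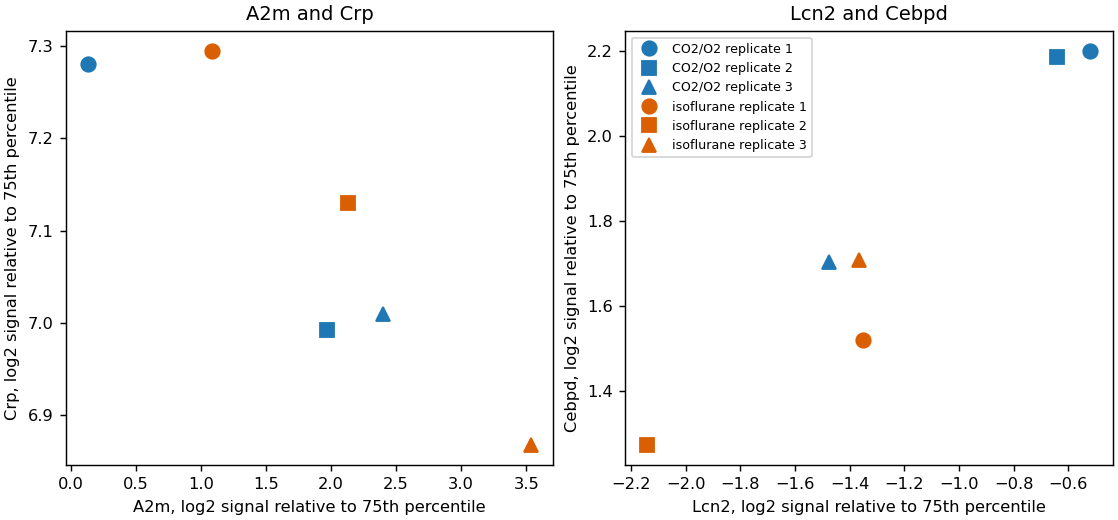
Each point is 1 rat, with the log2 signals of A2m and Crp on the left and of Lcn2 and Cebpd on the right, relative to the array's 75th percentile; colours give the anaesthesia and shapes the replicate number. A2m and Crp have r = -0.913 and Lcn2 and Cebpd r = 0.967 (n = 6), neither of which passed after adjustment over the 45 pairs, and the axes differ in scale.

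A2m was the member with the largest SD over the 6 arrays, and 1646 other genes that were above background on all arrays with an SD of at least 0.3 were ranked by correlation with it. The 5 most alike were Rdh16, a retinol dehydrogenase (r = 0.987), Bbs2, a ciliary protein of the BBSome (0.976), Sorl1, a sorting receptor (0.969), Hspb1, a small heat shock protein (0.967), and Nol3, an apoptosis repressor (0.960). Rdh16 spanned 5.73-fold and Hspb1 8.78-fold over the rats. These are the extremes of many comparisons over 6 points that share arrays, and are a description only.

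Other secreted acute phase proteins did not pass the test either. Of 23 further positive acute phase proteins 21 were tested, 11 with positive and 10 with negative differences, a median of 0.029 and 0 past the threshold in limma (0 also at an unadjusted p under 0.05). The leading members by size of moderated t were Serping1, the C1 inhibitor (-0.14 ± 0.08), Mt2A, a metallothionein (-0.31 ± 0.20), and Serpina1, the elastase inhibitor antitrypsin (0.11 ± 0.08). The fibrinogen chains Fga, Fgb and Fgg had differences of 0.03, 0.03 and 0.05, from median pixel signals that reached 52.3%, 68.0% and 57.9% of the saturation value. Of the 21 genes 6 exceeded 50% of that value on every array, Serpina1 among them, and what this does to their differences was not tested. Hamp, which encodes the iron hormone hepcidin, was the most variable of this list, at 6.11, 7.43 and 7.67 under CO2/O2 and 4.24, 7.03 and 7.42 under isoflurane, a span of 10.8-fold and a difference of -0.84 ± 0.89 (SE; limma adjusted p = 0.853). Isoflurane replicate 1 was its lowest rat, as it was for Cebpb. Of 11 negative acute phase proteins, whose secretion drops in inflammation, all 11 were tested, with 7 positive and 4 negative differences and a median of 0.014; 6 of them, Ttr and Rbp4 included, exceeded 50% of the saturation value on every array. F12, coagulation factor XII, had -0.15 ± 0.08, Ttr, the thyroxine carrier transthyretin, -0.15 ± 0.13, and Rbp4, the retinol carrier, 0.09 ± 0.08. The second probe of Ttr gave 0.061, of the opposite sign, while those of F12 (-0.091) and Rbp4 (0.152) kept theirs. Of these 11 genes, 0 passed in limma (0 also at an unadjusted p under 0.05). The values of Fga, Fgb, Fgg and Hamp here, and of Stat3 and Il6r in what follows, were singled out after they were seen.

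Upstream of the members, the cytokine Il6 did not exceed background on any of the 6 arrays. Of 8 ligands 7 were tested, with a median difference of -0.020. Il18 had -0.41 ± 0.16 (limma unadjusted p = 0.0385, adjusted p = 0.650), Lif, leukemia inhibitory factor, 0.32 ± 0.28 and Osm, oncostatin M, 2.02 ± 1.34. The value for Osm rested on isoflurane replicate 2, at 1.60 against -3.92 to -3.33 in the other 5 rats, 30.4-fold above the next. The second Osm probe stayed at background in all 6 rats, that one included. Of 18 receptors and signal transducers 14 were tested, 5 with positive and 9 with negative differences and a median of -0.070, led by the adaptor Myd88 (-0.20 ± 0.09), the kinase Jak2 (-0.18 ± 0.09) and Ikbkg, the NEMO subunit of the IkB kinase (0.35 ± 0.22). Ikbkg was dim, with mean levels of -4.31 under CO2/O2 and -3.96 under isoflurane, though above background on all 6 arrays. Stat3 had -0.14 ± 0.21 and Il6r 0.09 ± 0.19. Of 15 other feedback inhibitors and partner factors 12 were tested, 3 with positive and 9 with negative differences and a median of -0.078. Il1r2, the decoy receptor for interleukin-1, had -0.55 ± 0.25 but was above background in only 1 of 3 isoflurane rats, the NF-kB cofactor Bcl3 had -0.76 ± 0.43, and Ptpn11, the phosphatase SHP2, had 0.12 ± 0.08. In limma 0 genes of these 3 lists passed over all probes, and at an unadjusted p under 0.05 there was 1, Il18.

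Every array had 0 saturated spots. The share of probes clear of background was lowest on slide row 2, at 53.4% and 55.7% in isoflurane replicates 2 and 3. On row 1 it ran from 56.9% to 62.3%, with isoflurane replicate 1 at 60.6%. The array's 75th percentile was lowest in isoflurane replicates 2 (912.5) and 1 (921.4) and highest in CO2/O2 replicate 3 (998.3). Isoflurane replicate 3 (952.3) was above CO2/O2 replicate 2 (941.2). Row 2 held only isoflurane rats, so row and anaesthesia cannot be told apart in these shares. The limma p-values rest on the spread between these individual animals, with 1 array each, so differences between arrays are part of it. limma also draws the spread of each probe toward that of all tested probes. For Hp, with a residual SD of 0.027, the SE of the difference was 0.074.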

How the data were processed

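Liver RNA of 6 rats was measured on 1-colour Agilent arrays, 1 rat per array. Per the labels' protocols, 0.2 ug of RNA was amplified and labelled with Cy3, and the scans were quantified in Agilent Feature Extraction 10.7 per the submitters' processing notes. The authors' deposited spot values are background-corrected intensity values on a linear scale, unscaled between arrays per the file headers; scanner flags, used as the authors deposited them, gave above-background and outlier calls and carry no other unit. The deposited value table holds a ratio, each array's intensity divided by 1 number near its 75th percentile.

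From log2 intensity the 75th percentile of the array, over 61657 non-control probes, was subtracted, and 177 outlier spots were left out. Testing required a probe to exceed background clearly in all 3 rats of at least 1 group. limma 3.58.1 in R 4.3.3 (lmFit, eBayes) was fitted on the whole table, with Benjamini-Hochberg adjustment over all probes, and was tested on simulated data. A gene is its brightest tested probe; probes were named through RefSeq accessions (assembly GRCr8, names and upstream sequence only, since the arrays' headers name another build). Genes outside the members were named as the 3 with the largest size of moderated t in each list, cytokine ligands also by whether they were above background, and the 5 genes most like the most variable member. The members and lists were chosen with earlier results of these data known. All arrays shared 1 slide and 1 scan time, so neither was fitted as a block; slide rows were. Plots used Python 3.11.15 with matplotlib 3.10.9. The number of arrays limits the precision. Samples with the same replicate number are different rats and were not treated as pairs.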

Additional observations from a re-analysis of the deposited data

How the results depend on the processing

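The count of members past the threshold, 0, remained 0 in limma under median centring, normexp background correction of the median signals, quantile normalization, both other filters on dim probes, the authors' value table, eBayes with trend and robust, inclusion of the outlier spots, the mean of a gene's probes, a slide row block, the replicate block and each array left out, and was 1 at an unadjusted p under 0.05. The smallest adjusted p of any member in these settings was 0.421. Lcn2, Socs3, Cebpb, Cebpd and Nfkbia kept the sign of their difference in all 17 settings. Both filters, eBayes with trend and robust, the outlier spots and the replicate block left each member's difference unchanged, so no sign could change there. The authors' value table hardly moved the differences. A2m took the opposite sign under the slide row block (-0.42), Hp with median centring (-0.031), Crp with median centring (-0.056) and the mean of its probes (-0.041), and Il1rn under the slide row block (0.049). With an array left out, Orm1 ran from -0.38 to 0.0057, Crp from -0.096 to 0.12 and Il1rn from -0.13 to 0.069. The slide row fit rests on isoflurane replicate 1 alone for its group, and with an array left out fewer rats carry 1 arm. Median centring shifts each array as a whole, so it lowered every member's difference by the same amount. The differences of Hp (0.028) and Crp (0.0031) were smaller than that amount. The cause of the remaining sign changes was not tested.

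Deviations from the group mean over the tested probes were correlated between rats. Same-numbered rats had correlations of 0.114, 0.0213 and 0.0600, so the numbers were not taken to pair rats. Each isoflurane rat nevertheless correlated best with its own number. A fit with the replicate number as a block left the difference of A2m at 0.75. Its SE was 0.22 in place of 0.80 (limma unadjusted p = 0.0267, adjusted p = 0.556), and 0 members passed with the block. Whether signals near saturation, as for Hp, or as dim as the second Socs3 probe limit what these arrays can resolve was not tested.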

Other observations

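Genes whose signal ran opposite to A2m across the 6 rats were looked up after the values were seen, among the same 1646 genes. The 5 with the most negative correlation were Srd5a2 (r = -0.986), Psmb8 (-0.980), Armc9 (-0.966), Srd5a1 (-0.958) and Bst2 (-0.958). Srd5a1 and Srd5a2 encode steroid 5-alpha reductases, Psmb8 an immunoproteasome subunit and Bst2 an interferon-inducible membrane protein. Srd5a1 was at 5.31, 4.58 and 4.18 in CO2/O2 replicates 1 to 3 and 4.74, 4.34 and 3.03 in isoflurane replicates 1 to 3, a span of 4.84-fold. The rat with the most A2m, isoflurane replicate 3, had the least Srd5a1, and the rat with the least A2m, CO2/O2 replicate 1, had the most. Bst2 and Psmb8 spanned 1.99-fold and 2.00-fold. These correlations share arrays, are the extremes of many and carry no test.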
